A study of Mus musculus with 4 samples.

Results

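The genes described here are Tet1, Tet2, Tet3, Dnmt1, Dnmt3a, Dnmt3b and Uhrf1, the enzymes that write, copy and oxidise DNA methylation together with the factor that guides its copying. They were taken by gene symbol from the deposited expression table, and all 7 were among its 24340 genes. RNA was sequenced from bone marrow cells of C57BL/6 mice that lacked lineage markers and carried Kit on their surface, a fraction rich in immature blood cells. Every library came from cells with JAK2V617F, an activated form of the kinase JAK2, so wild type refers to Tet2 alone. The 4 groups were Tet2-/- cells given ruxolitinib, Tet2-/- control cells, Tet2+/+ cells given ruxolitinib and Tet2+/+ control cells, with 1 library each. Ruxolitinib inhibits the kinases JAK1 and JAK2. The driver of the Tet2 deletion, the age and number of mice, and the dose and time of the drug are not given in the labels. A spread between samples could not be estimated, so every difference below compares single libraries and carries no test.

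Methyl groups on cytosines next to guanines are set by DNA methyltransferases. Dnmt3a and Dnmt3b place methylation on unmethylated DNA, whereas Dnmt1 copies existing methylation onto the new strand after replication, brought there by Uhrf1, which binds hemimethylated DNA. The TET dioxygenases oxidise 5-methylcytosine, which leads to its loss by dilution or by base excision. In human blood, loss-of-function mutations of TET2 and of DNMT3A both recur in clonal haematopoiesis and myeloid cancers, although the enzymes act in opposite directions on the same base.

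Some properties of the libraries touch every genotype comparison. Xist, the RNA of the inactive X chromosome, was at 62.2 and 53.2 FPKM in the knockout libraries with and without ruxolitinib, against 0.0309 and 0.0241 FPKM in the wild-type pair. FPKM is a level scaled to transcript length and library depth. Ddx3y, a gene of the Y chromosome, had 0.00886 and 0.0288 FPKM in the knockout libraries with and without ruxolitinib, against 18.7 and 21.3 FPKM in the wild-type pair. Genotype and sex therefore cannot be told apart here. Mast cell transcripts were abundant: 11 of 12 mast cell markers were measured, with the carboxypeptidase gene Cpa3 listed at 0 in all 4 libraries. The markers summed to 23129.5 and 19371 FPKM in the knockout libraries with and without ruxolitinib, against 31163 and 27579 FPKM in the wild-type pair. The chymase gene Cma1 and the IgE receptor gene Fcer1a held most of these sums, with log2 ratios of -0.65 and -0.72, knockout over wild type, with drug and -0.72 and -0.70 in control cells. The tryptase gene Tpsab1 went the other way, with log2 ratios of 1.99 with drug and 1.13 in control cells. Tpsb2 and Mcpt4, at 3693 and 2981 FPKM in the knockout with drug, were nearer to even. Their log2 ratios were 0.18 and 0.020 with drug and -0.017 and -0.13 in control cells. Of the 11, 5 had a higher and 6 a lower value in the knockout with drug, and 1 and 10 in control cells. Of 8 stem and early progenitor markers 5 were measured, and the progenitor receptor gene Flt3 was listed at 0 throughout. The progenitor marker gene Cd34 was at 465 and 317 FPKM in the knockout libraries with and without ruxolitinib, against 431 and 307 FPKM in the wild-type pair. The surface marker gene Ly6a was at 749 and 583 FPKM in the knockout libraries with and without ruxolitinib, against 1033 and 938 FPKM in the wild-type pair. The 4 B cell markers summed to at most 0.0605 FPKM in a library. The part of cell content in the results was not tested, and in bulk RNA fewer cells of a type and less RNA per cell cannot be told apart. From the spacing of the lowest values, depth was estimated at 52100000 and 55000000 fragments for the knockout libraries with and without drug. The wild-type pair was estimated at 47900000 and 44300000, any scaling by the authors' software included. The spacing was searched in a range set in advance, so these depths could be off by a multiple.

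The order of the 7 genes by level per length was the same in all 4 libraries: Dnmt1 was highest, followed by Uhrf1, Tet3, Dnmt3a, Tet2, Dnmt3b and Tet1. Genes averaging 1 FPKM or more counted as measured, 10471 in all; 6 of the 7 enzymes did so, and Tet1 did not. Dnmt1 stood at percentiles 90.9 and 89.3 of measured genes in the knockout libraries with and without drug, against 85.8 and 83.0 in the wild-type pair. Uhrf1 stood at 85.7 and 83.5 in the knockout, against 76.6 and 70.3 in the wild type. The closest neighbours were Tet3 and Dnmt3a, with Tet3 1.28-fold and 1.16-fold above Dnmt3a in the knockout libraries, against 1.35-fold and 1.13-fold in the wild-type pair. Without replicates, gaps of that size cannot be set against a spread. At the low end, Dnmt3b was 10.5-fold and 18.3-fold above Tet1 in the knockout libraries, against 9.50-fold and 15.3-fold in the wild-type pair.

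**Figure D1:**
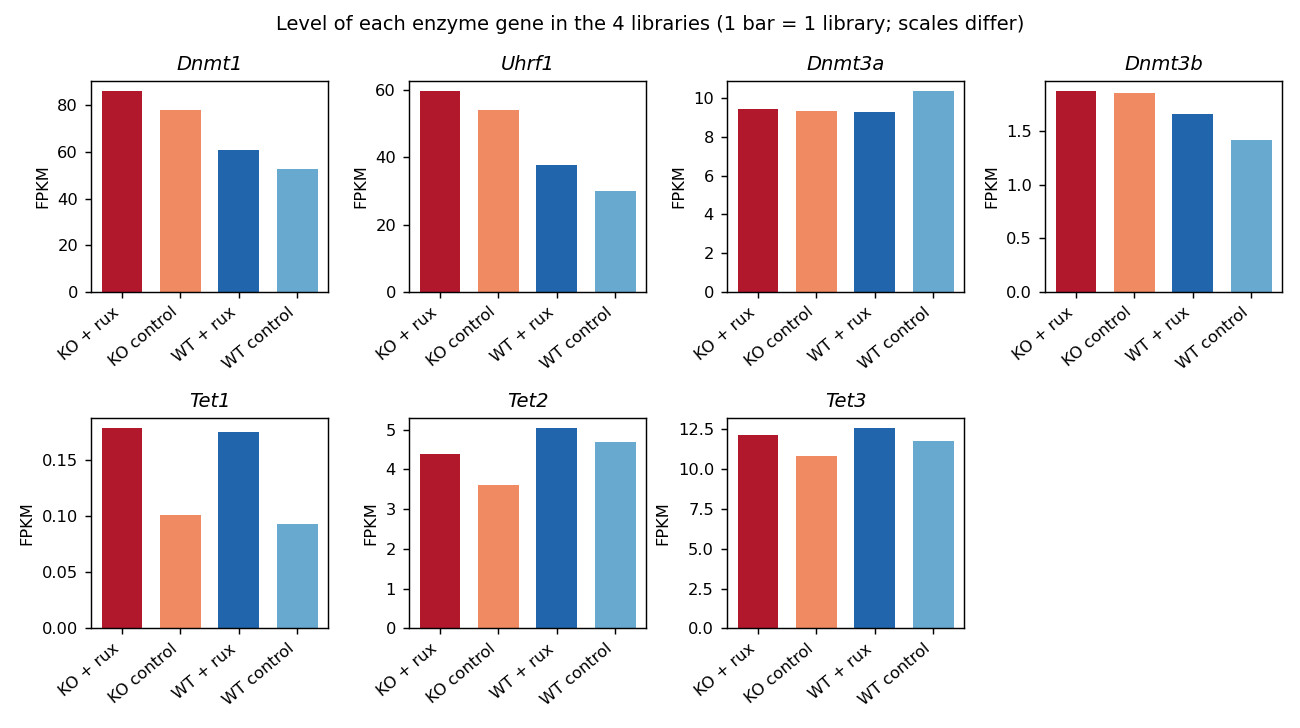
FPKM of each gene (vertical axis from 0, with its own scale per panel) in the knockout (KO) libraries with ruxolitinib (rux) and without, and the wild-type (WT) libraries with ruxolitinib and without; 1 bar is 1 library and there are no error bars. For Dnmt1 and Uhrf1 both knockout bars stand above both wild-type bars, and Tet1 is at or below 0.178 FPKM in every library.

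The maintenance genes Dnmt1 and Uhrf1 lay furthest above wild type in the knockout libraries. Uhrf1 (chromosome 17, 56303337 to 56323486, mm10), the hemimethylation reader, was with ruxolitinib at 59.7 FPKM in the knockout, against 37.7 FPKM in the wild type. In control cells it was at 54.0 FPKM in the knockout, against 29.9 FPKM in the wild type. Its lower knockout value lay above its higher wild-type value. The log2 ratio of FPKM + 1, knockout over wild type, was 0.65 with drug and 0.83 in control cells, above 97.7% and 98.3% of measured genes.

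Dnmt1 (chromosome 9, 20907206 to 20959888), the maintenance methyltransferase, was with ruxolitinib at 86.1 FPKM in the knockout, against 60.8 FPKM in the wild type. Without drug it was at 78.1 FPKM in the knockout, against 52.8 FPKM in the wild type. Its knockout and wild-type values did not overlap either. The log2 ratios were 0.50 with drug and 0.56 in control cells, short of the 1.5-fold line used for counting genes. A microRNA gene inside Dnmt1, Mir7081, was listed at 24.3 FPKM in the knockout control library and at 0 in the other libraries. In the authors' deposited table the q-values with drug were 0.000746 for Uhrf1 and 0.00197 for Dnmt1, and in control cells 0.000746 for both. For Tet2 they were 0.420 with drug and 0.0553 in control cells, for Dnmt3b 0.640 and 0.140, for Tet3 0.892 and 0.696, and for Dnmt3a 0.959 and 0.587. These q-values compare single libraries and not genotypes.

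At 1.5-fold or more, 1 of the 6 measured members, Uhrf1, was higher in the knockout and 0 were lower, with ruxolitinib and again in control cells. Of all measured genes, 2.97% were that far higher and 3.34% that far lower with ruxolitinib. In control cells the shares were 3.88% higher and 5.06% lower. The median log2 ratio of the 6 was 0.066 with drug and 0.067 in control cells, beside 0.00093 and 0.0028 over all measured genes. Rescaling each library to the same total (TPM) raised the median over all measured genes by 0.13 with drug and 0.14 in control cells, and ratios below are on the deposited scale, where that median is near 0. On the TPM scale Dnmt1 also passed 1.5-fold, with log2 ratios of 0.63 and 0.71. The share of all measured genes past 1.5-fold was not computed on that scale, so counts past 1.5-fold by TPM are given without it. In 3 of the 6, Dnmt1, Uhrf1 and Dnmt3b, both knockout libraries lay above both wild-type libraries, as they did in 28.2% of measured genes. In 1 of the 6, Tet2, both lay below, as they did in 28.2% of measured genes. By TPM, 4 of the 6 lay above, Dnmt3a being added, as in 50.4% of measured genes, and 0 lay below, as in 11.7%.

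**Figure D2:**
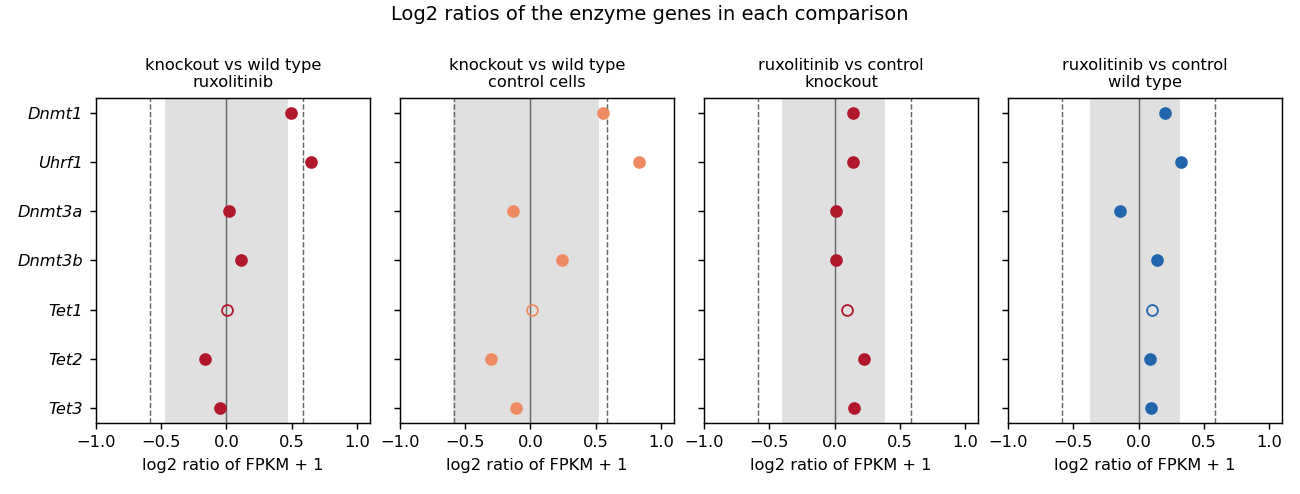
Log2 ratio of FPKM + 1 (horizontal axis) for each gene in the 4 comparisons; the grey band spans the middle 90% of measured genes, dashed lines mark 1.5-fold, and open circles are Tet1, which averaged under 1 FPKM. Uhrf1 lies past the dashed line in both knockout comparisons, at 0.65 with drug and 0.83 in control cells, Dnmt1 lies between the band and the line, and no member passes the line in the ruxolitinib comparisons.

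DNA replication genes were higher in the same knockout libraries. Of 20 replication genes 14 were at least 1.5-fold higher with ruxolitinib and 19 in control cells, with 0 as far lower and median log2 ratios of 0.63 and 0.78. Of 14 mitosis genes 0 were that far higher with drug and 4 in control cells, with medians of 0.41 and 0.47; on the TPM scale these counts were 6 and 9. Dnmt1 and Uhrf1 were therefore also divided by these genes within each library, which removes any common scaling.

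Divided by the geometric mean of the 20 replication genes, Uhrf1 was at 1.25 in the knockout with drug, against 1.24 in the wild type. In control cells this quotient was 1.15 in the knockout, against 1.12 in the wild type. The knockout quotient of Uhrf1 was thus 1.004 times the wild-type one with drug and 1.03 times in control cells. For Dnmt1 the knockout quotient was 0.899 times the wild-type one with drug and 0.845 times in control cells, so Dnmt1, higher in the knockout in FPKM, was lower there relative to the replication genes. Against the geometric mean of the 14 mitosis genes, the knockout quotient of Uhrf1 was 1.18 times the wild-type one with drug and 1.31 times in control cells, and that of Dnmt1 1.06 and 1.08 times. The part of the number of cycling cells in the levels of Dnmt1 and Uhrf1 was not tested.

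The RefSeq promoter windows of the maintenance genes (GRCm38.p6, 250 bases before to 50 bases after an annotated start) are shown because these genes had similar profiles and because 3 of their windows were the only ones of the 7 genes with an E2F-type match. E2F factors bind many promoters of S-phase genes. The E2F-type letters searched, on both strands, were TTCCCGC as well as the variants TTGGCGC plus TTCGCGC and lastly the variant TTGCCGC. Matches are in capitals. The 7 genes had 12 windows, and 9.57% of all 32851 windows of that length held a match. Every E2F-type string searched holds a CpG, a cytosine followed by a guanine, and that share was not matched for CpG content. Dnmt1 and Uhrf1 have several annotated starts, and the deposited value sums over them. The lines give chr9:20952574-20952873 on the minus strand, then chr17:56303087-56303386 and chr17:56304063-56304362 on the plus strand, each 5′ to 3′ along the gene.
Dnmt1, start at 20952623: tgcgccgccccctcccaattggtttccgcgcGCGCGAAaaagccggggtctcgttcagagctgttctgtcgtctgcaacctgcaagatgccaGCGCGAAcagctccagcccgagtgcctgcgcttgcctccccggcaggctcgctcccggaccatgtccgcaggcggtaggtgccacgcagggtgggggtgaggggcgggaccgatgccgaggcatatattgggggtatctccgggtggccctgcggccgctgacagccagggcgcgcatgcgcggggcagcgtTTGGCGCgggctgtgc
Uhrf1, start at 56303337: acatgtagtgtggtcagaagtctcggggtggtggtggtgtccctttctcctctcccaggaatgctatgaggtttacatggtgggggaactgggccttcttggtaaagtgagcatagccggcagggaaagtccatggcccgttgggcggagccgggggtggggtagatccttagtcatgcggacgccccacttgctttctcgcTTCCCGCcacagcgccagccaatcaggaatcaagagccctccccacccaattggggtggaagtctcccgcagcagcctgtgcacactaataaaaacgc
Uhrf1, start at 56304313: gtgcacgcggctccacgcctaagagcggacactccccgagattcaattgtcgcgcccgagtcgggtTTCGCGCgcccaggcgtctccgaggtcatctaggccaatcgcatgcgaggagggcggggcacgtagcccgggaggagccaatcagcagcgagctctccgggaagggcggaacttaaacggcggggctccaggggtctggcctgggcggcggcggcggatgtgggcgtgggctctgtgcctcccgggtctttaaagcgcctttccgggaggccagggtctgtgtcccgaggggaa

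The windows at the other Dnmt1 starts, 20952979 and 20959888, are not shown and held 0 E2F-type matches. The Dnmt1 window shown held 3 matches and each Uhrf1 window held 1. Counted from 0 at the start, those of Dnmt1 began at positions -219, -158 and 34, that of the first Uhrf1 window at -48 and that of the second at -184. The 3 windows also held CCAAT, a box found on either strand in 37.4% of all windows, 3 times in the Dnmt1 window and 3 and 2 times in those of Uhrf1. The letters TTCNNNGAA, read by STAT factors downstream of JAK2, were in 0 of the 12 windows and in 8.3% of all windows. A match is a stretch of letters and not a measured site.

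The window of Tet2 is shown as the other extreme of the set, with the most CpG dinucleotides. It held 57 CpG, more than 99.8% of all windows, whose median was 7, and no E2F-type match. It spans chr3:133544341-133544640 on the minus strand.
Tet2, start at 133544390: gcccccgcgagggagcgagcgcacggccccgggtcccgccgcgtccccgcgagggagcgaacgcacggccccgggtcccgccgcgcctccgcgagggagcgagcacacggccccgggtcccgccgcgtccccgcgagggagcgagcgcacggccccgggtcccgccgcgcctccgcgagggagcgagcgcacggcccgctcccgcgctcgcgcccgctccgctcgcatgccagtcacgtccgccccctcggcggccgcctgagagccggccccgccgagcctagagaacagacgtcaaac

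The windows at the first start of Dnmt3a and at the start of Dnmt3b held 46 and 30 CpG, and that of Tet3 held 22. The Dnmt1 window above held 33, the first Uhrf1 window 12 and the second 33. The RefSeq start of Tet1 lies outside the locus deposited for that gene, so its window is not shown.

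Among 9492 other protein-coding genes, those most like Dnmt1 and Uhrf1 over the 4 libraries included genes of DNA replication and repair. Likeness was the Euclidean distance between log2(FPKM + 1) profiles, each centred on its own mean. Nearest to Dnmt1 were Eme1, a subunit of a structure-specific endonuclease, at a distance of 0.0210, the lamin gene Lmnb1 at 0.0392 and Pola1, the catalytic subunit of DNA polymerase alpha, at 0.0407. Nearest to Uhrf1 were the replicative helicase subunit Mcm7 at 0.0196, Foxred2 at 0.0270 and the transcription factor E2f2 at 0.0285. Mcm7 was at 76.4 and 70.1 FPKM in the knockout libraries with and without ruxolitinib, against 48.9 and 39.1 FPKM in the wild-type pair. E2f2 was at 7.40 and 6.63 FPKM in the knockout libraries with and without ruxolitinib, against 4.35 and 3.37 FPKM in the wild-type pair. With 4 libraries such likeness is a description, and the other 4 measured members spanned less than 1.5-fold and were not searched.

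The de novo methyltransferases differed less between the libraries. Dnmt3a (chromosome 12, 3806980 to 3914443) was with ruxolitinib at 9.46 FPKM in the knockout, against 9.31 FPKM in the wild type. In the control libraries it was at 9.36 FPKM in the knockout, against 10.4 FPKM in the wild type. The knockout values lay inside the range of the wild-type values. The log2 ratios were 0.021 with drug and -0.13 in control cells, where the TPM scale gave 0.0030.

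Dnmt3b (chromosome 2, 153649449 to 153687730) was with ruxolitinib at 1.87 FPKM in the knockout, against 1.66 FPKM in the wild type. Its control libraries were at 1.86 FPKM in the knockout, against 1.42 FPKM in the wild type. Knockout and wild-type values did not overlap, but the log2 ratios of 0.11 with drug and 0.24 in control cells stayed under 1.5-fold, and without a pseudocount the folds were 1.13 and 1.31. Over the settings tried the log2 ratio ranged over 0.045 to 0.24 with drug and 0.10 to 0.41 in control cells, and the TPM scale gave the highest value in both. These values rest on an estimated 402 and 421 fragments in the knockout libraries with and without drug, against 328 and 258 in the wild-type pair, so counting error alone was between 4.88% and 6.22%. A near copy of Dnmt3b lies next to it, was not analysed here and could share reads with it, so the level of Dnmt3b is uncertain. Dnmt3l, the catalytically inactive cofactor of the de novo enzymes, was at 0.0396 FPKM in the knockout control library and listed at 0 in the others.

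Dnmt1 made up a larger share of the methyltransferase transcripts in the knockout. It accounted for 88.4% of the summed FPKM of Dnmt1, Dnmt3a and Dnmt3b in the knockout with drug, against 84.7% in the wild type. In control cells the share was 87.4% in the knockout, against 81.8% in the wild type. The share of Dnmt3a was 9.70% and 10.5% in the knockout libraries with and without drug, against 13.0% and 16.1% in the wild-type pair. Uhrf1 stood at 0.693 and 0.691 of the Dnmt1 level in the knockout libraries, against 0.621 and 0.566 in the wild-type pair.

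Tet2 (chromosome 3, 133463677 to 133544390), the gene named as deleted, was with ruxolitinib at 4.39 FPKM in the knockout, against 5.05 FPKM in the wild type. Among control libraries it was at 3.62 FPKM in the knockout, against 4.69 FPKM in the wild type. In FPKM both knockout values lay below both wild-type values, at 0.870 of the wild-type level with drug and 0.772 in control cells, with log2 ratios of -0.17 and -0.30. On the TPM scale the values overlapped, at 9.42 and 7.64 TPM in the knockout libraries with and without drug, against 9.87 and 8.91 TPM in the wild-type pair, with log2 ratios of -0.061 and -0.20. In FPKM, of all measured genes, 21.2% and 13.8% had a lower ratio. The deposited values sum over the whole gene and cannot show a deleted exon, so they check nothing about the genotype label. An estimated 2053 and 1788 fragments were behind the knockout values with and without drug, so transcripts of Tet2 were still detected in both.

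Tet3 (chromosome 6, 83362374 to 83441678), the most abundant TET gene in these libraries, was with ruxolitinib at 12.1 FPKM in the knockout, against 12.6 FPKM in the wild type. The control libraries were at 10.9 FPKM in the knockout, against 11.8 FPKM in the wild type. Knockout and wild-type values overlapped, and the log2 ratios of -0.050 and -0.11 became 0.077 and 0.032 on the TPM scale, so they give no direction. Tet3 made up 72.7% and 74.5% of the summed TET level in the knockout libraries with and without drug, against 70.7% and 71.1% in the wild-type pair.

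Tet1 (chromosome 10, 62804570 to 62880014) was at 0.178 and 0.101 FPKM in the knockout libraries with and without ruxolitinib, against 0.175 and 0.0924 FPKM in the wild-type pair. Both ruxolitinib values lay above both control values, as in 18% of measured genes, to which Tet1 does not belong. The ruxolitinib library was at 1.76 times its control in the knockout and 1.89 times its control in the wild type. Because Tet1 is low, the log2 ratios of FPKM + 1 were only 0.10 in each genotype, and it did not enter the counts. An estimated 128 and 77 fragments stood behind the knockout values, against 115 and 56 behind the wild-type ones, with counting errors between 8.84% and 13.3%. The authors' deposited table made no test of Tet1 in these pairs. A noncoding RNA gene, Gm51805, overlaps Tet1 and has no deposited value, and its part in the level of Tet1 was not tested.

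**Figure D3:**
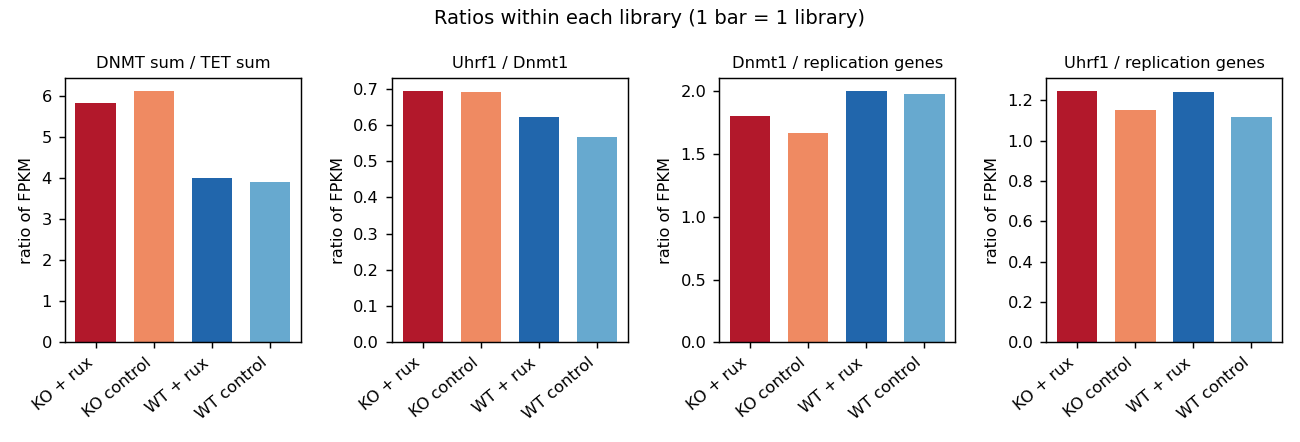
Ratios of FPKM within each library (vertical axes, starting at 0): the summed DNMT over the summed TET level, Uhrf1 over Dnmt1, and Dnmt1 and Uhrf1 over the geometric mean of 20 replication genes, with 1 bar per library in the knockout (KO) and wild type (WT), with ruxolitinib (rux) and without. The DNMT to TET ratio is 5.83 and 6.13 in the knockout libraries and 4.02 and 3.90 in the wild-type ones, whereas Uhrf1 over replication genes stays between 1.12 and 1.25.

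Within a library, the 3 DNMT genes with drug summed to 5.83 times the 3 TET genes in the knockout, against 4.02 times in the wild type. In control cells the ratio was 6.13 in the knockout, against 3.90 in the wild type. The DNMT sum was 97.5 and 89.4 FPKM in the knockout libraries with and without drug, against 71.7 and 64.6 FPKM in the wild-type pair. The TET sum was 16.7 and 14.6 FPKM in the knockout, against 17.8 and 16.6 FPKM in the wild type. The ratio is a ratio of transcripts and says nothing of enzyme activity.

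With ruxolitinib, 0 of the 6 measured members were 1.5-fold higher or lower in either genotype. In knockout cells 1.67% of measured genes were that far higher and 2.2% lower, and in wild-type cells 1.05% higher and 2.64% lower. The ratio furthest from 0 was that of Uhrf1 in wild-type cells, at a log2 ratio of 0.33, above 95.6% of measured genes, beside 0.14 in knockout cells. Dnmt1 had log2 ratios of 0.14 in knockout and 0.20 in wild-type cells. Tet2 had 0.22 in knockout and 0.089 in wild-type cells. For Tet3 the values were 0.15 in knockout and 0.091 in wild-type cells, and for Dnmt3b 0.0084 and 0.14. In these 5 of the 6 the ruxolitinib library lay above its control in both genotypes, as in 39.7% of measured genes. The pattern below control in both had 0 of the 6 and 36.5% of measured genes. Tet3 was the only measured member with both ruxolitinib libraries above both controls, as in 18% of measured genes, and 0 of the 6 had both below, as in 18.4%.

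The knockout log2 ratio with drug minus that in control cells stayed under 1.5-fold for all 6 measured members, while 1.82% of measured genes were that far above and 1.14% that far below 0. It was -0.18 for Uhrf1, -0.13 for Dnmt3b and -0.059 for Dnmt1. On the other side of 0 were Dnmt3a at 0.16, Tet2 at 0.13 and Tet3 at 0.059. All 20 replication genes had negative differences, with a median of -0.14, beside a median of -0.0083 over all measured genes. Of the 14 mitosis genes 9 had negative differences, with a median of -0.071. The share of all measured genes below 0 was not computed, and all these differences rest on the same 4 libraries.

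**Figure D4:**
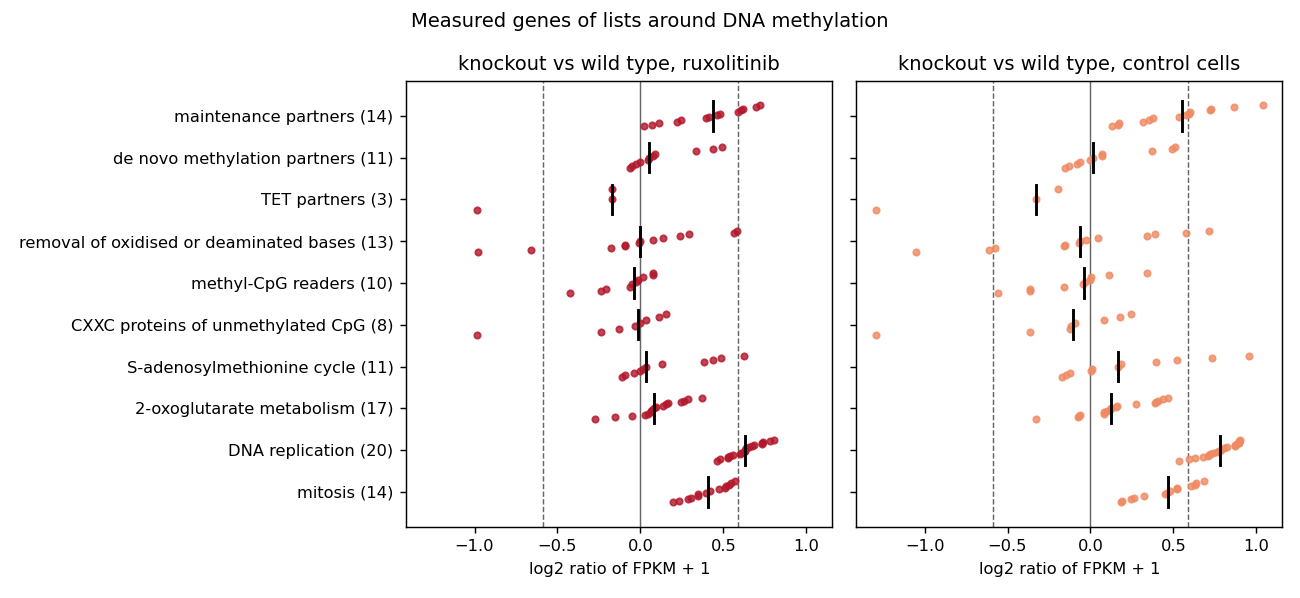
Log2 ratio of FPKM + 1, knockout over wild type (horizontal axes), for the measured genes of lists around DNA methylation with ruxolitinib and in control cells; each point is 1 gene, black bars are list medians, dashed lines mark 1.5-fold and the number of measured genes is in parentheses. The maintenance partners and replication genes sit right of 0, with medians of 0.55 and 0.78 in control cells, and the de novo partners sit around 0.

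Several genes that work with Dnmt1 and Uhrf1 at replicating chromatin were higher in the knockout. Of 14 measured maintenance partners 5 passed 1.5-fold upwards with ruxolitinib and 6 in control cells, with 0 downwards. Their median log2 ratios were 0.44 and 0.55. On the TPM scale, where knockout values as a whole rise relative to wild type, 7 and 8 passed. The chromatin remodeller Hells, which is needed for DNA methylation in mouse, was at 24.6 and 27.4 FPKM in the knockout libraries with and without ruxolitinib, against 14.6 and 12.8 FPKM in the wild-type pair. Its partner Cdca7 was at 27.1 and 27.5 FPKM in the knockout libraries with and without ruxolitinib, against 16.4 and 14.7 FPKM in the wild-type pair. The replicative ligase Lig1, which recruits Uhrf1 when methylated, was at 55.1 and 49.4 FPKM in the knockout libraries with and without ruxolitinib, against 35.8 and 29.4 FPKM in the wild-type pair. Chaf1a, the large subunit of the chromatin assembly factor at replication forks, was at 28.3 and 28.0 FPKM in the knockout libraries with and without ruxolitinib, against 18.5 and 16.6 FPKM in the wild-type pair. Uhrf2, the paralogue of Uhrf1, was nearer to even, at 16.7 and 15.5 FPKM in the knockout libraries with and without ruxolitinib, against 14.3 and 13.7 FPKM in the wild-type pair. The deubiquitinase gene Usp7 had log2 ratios of 0.069 with drug and 0.13 in control cells, and Dmap1 had 0.024 and 0.17. Pcna is on this list and on the replication list.

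The 11 measured partners of de novo methylation had a median log2 ratio of 0.049 with drug and 0.014 in control cells, and 0 passed 1.5-fold in either direction. In TPM 2 passed upwards with drug and 2 in control cells. Beside TPM medians of 0.13 and 0.15 over all measured genes, the list medians were then 0.18 and 0.16. The ratio furthest from 0 was that of Whsc1, a histone H3 lysine methyltransferase, at 21.5 and 19.6 FPKM in the knockout libraries with and without ruxolitinib, against 15.0 and 13.5 FPKM in the wild-type pair. The histone methyltransferase Suv39h2 had log2 ratios of 0.44 with drug and 0.49 in control cells, and Suv39h1 had 0.34 and 0.37. Ehmt2 went the other way, at -0.064 and -0.16. Of the 11, 4 were lower in the knockout with drug and 5 in control cells.

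Of 11 listed TET partners 3 were measured, and 1 was lower in the knockout by 1.5-fold or more in both comparisons. This was Cxxc5, a CXXC zinc finger protein, at 14.3 and 11.5 FPKM in the knockout libraries with and without ruxolitinib, against 29.2 and 29.7 FPKM in the wild-type pair, with log2 ratios of -0.99 with drug and -1.29 in control cells. Its relative Cxxc4 reached at most 0.0174 FPKM. The glycosyltransferase gene Ogt, whose product binds TET proteins, had log2 ratios of -0.17 and -0.20, and the myeloid factor Spi1 had -0.17 and -0.33. The median of the 3 was -0.17 with drug and -0.33 in control cells, and -0.045 and -0.18 on the TPM scale, where the knockout and wild-type values of Ogt and Spi1 overlapped and those of Cxxc5 did not.

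Genes that remove oxidised or deaminated bases showed no common direction. Of the 13 that were measured, 0 passed 1.5-fold upwards and 2 downwards with drug, and 1 and 2 in control cells, with medians of -0.00069 and -0.064. The abasic endonuclease Apex1 was at 34.2 and 47.8 FPKM in the knockout libraries with and without ruxolitinib, against 22.5 and 28.7 FPKM in the wild-type pair. The stress gene Gadd45g, a proposed adaptor of active demethylation, was at 10.4 and 12.2 FPKM in the knockout libraries with and without ruxolitinib, against 21.4 and 26.4 FPKM in the wild-type pair. Gadd45a had log2 ratios of -0.66 with drug and -0.61 in control cells, and the glycosylase Neil3 had 0.56 and 0.58. Readers of methylated CpG had medians of -0.040 and -0.039 over 10 genes with 0 past 1.5-fold, and the zinc finger reader Zbtb4 lay furthest from 0, at -0.42 and -0.56. The 8 measured CXXC proteins had medians of -0.017 and -0.10, and Cxxc5 was the 1 past 1.5-fold. On the TPM scale the medians of these 3 lists lay above 0 in both comparisons. They stayed below the TPM medians over all measured genes, 0.13 with drug and 0.15 in control cells. By TPM, 2 removal genes passed upwards and 1 downwards with drug, as did 2 and 1 in control cells.

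The S-adenosylmethionine cycle, which supplies the methyl donor, had a median log2 ratio of 0.036 with drug and 0.17 in control cells over 11 genes, with 1 and 2 at least 1.5-fold higher and 0 lower. Its medians were 0.16 and 0.32, with 2 and 3 that far higher, on the TPM scale. All measured genes had TPM medians of 0.13 with drug and 0.15 in control cells. The folate enzyme Shmt1 was at 14.8 and 18.9 FPKM in the knockout libraries with and without ruxolitinib, against 9.27 and 9.28 FPKM in the wild-type pair. Mthfd1, which interconverts folates, was at 26.6 and 34.7 FPKM in the knockout libraries with and without ruxolitinib, against 18.7 and 20.4 FPKM in the wild-type pair, and passed the line in control cells only, a difference that was not tested. The 17 genes that make or use 2-oxoglutarate, the cosubstrate of TET enzymes, had medians of 0.083 and 0.12, and 0 passed 1.5-fold. Their medians became 0.22 and 0.27 on the TPM scale, where 0 passed upwards with drug and 2 in control cells. Among them Idh2 had log2 ratios of 0.28 and 0.47.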

How the data were processed

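Ribosomal RNA was depleted before Illumina sequencing of total RNA, per the labels' protocols. STAR and Cuffdiff with mm10 are named in the submitters' processing notes; tool versions, annotation and strand handling were not given in the sources used here. Deposited by the authors were FPKM values for 24340 genes in 4 libraries, and a table of library pairs with log2 fold changes without a pseudocount, p-values, q-values and a test statistic, which is a score. Of 6 pairs in the authors' deposited table, 4 served here, and its p-values and score were left aside.

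Titles assigned each library to its group, 1 per group, so no p-value was computed. Ratios used log2(FPKM + 1), a scale that understates changes of low genes; a mean of 1 FPKM or more made a gene measured, and 1.5-fold was the counting rule. Members and lists were chosen with earlier results of these data known. From each list up to 4 measured genes with the largest ratio in control cells could be named. The 3 nearest profiles for each member spanning 1.5-fold could be named too. Uhrf2, Usp7, Dmap1, Dnmt3l, Cxxc4, Cebpa, Pcna and Mir7081 were added after their values were seen. So were the mast and progenitor markers, the genes under other observations, quotients within a library and overlap on the TPM scale. Fragments were estimated from the lowest values of genes with 1 GENCODE M21 transcript over 1500 bases, less 200 bases, then from each member's longest transcript inside its locus. Of values set aside, 78.3% to 87.9% lay within 0.15 of a whole multiple. The step was searched in a range set in advance, since a step and a fraction of it both give whole multiples. That share therefore cannot tell a depth from a multiple of it. Counting errors cover counting only. The 1.5-fold rule and the nearest-profile search were tried on simulated data with counting error. The other steps, among them the depth estimate and the promoter matching, were not. Other settings were pseudocounts of 0.1 and 5, TPM, centring on the median ratio, a 2-fold rule, no filter, a mean of 5 FPKM and the authors' fold changes. RefSeq promoter windows were matched for 7 of 7 members. Python 3.11.15, numpy 2.4.6, pandas 2.3.3 and matplotlib 3.10.9 were used.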

Additional observations from a re-analysis of the deposited data

Results flagged for a closer look

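Dnmt3a was the member whose direction differed between the sides of a contrast. Its log2 ratio, knockout over wild type, was 0.021 with ruxolitinib and -0.13 in control cells. Its log2 ratio, ruxolitinib over control, was 0.013 in knockout and -0.14 in wild-type cells. The wild-type control library, at 10.4 FPKM, enters both negative ratios, while the other 3 libraries lay between 9.31 and 9.46 FPKM. The difference was not tested, and on the TPM scale the knockout ratio in control cells was 0.0030.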

How the results depend on the processing

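Over the 5 comparisons and 8 other settings, 36 of 40 counts of members past 1.5-fold equalled the count given above. On the TPM scale the count was 2 in place of 1 for the knockout with ruxolitinib and 2 in place of 1 in control cells, where Dnmt1 joined Uhrf1. This scale divides each library by its own FPKM sum, 466334 and 473933 in the knockout libraries with and without drug. The wild-type sums were higher, at 511644 and 526299, so knockout levels rise relative to wild type. With a 2-fold rule the count was 0 in both, which the stricter rule itself sets. The knockout ratio of Uhrf1 ranged over 0.60 to 0.79 with drug and 0.76 to 0.99 in control cells, and that of Dnmt1 over 0.47 to 0.63 and 0.52 to 0.71. Tet2 ranged over -0.20 to -0.061 with drug and -0.37 to -0.17 in control cells. Both knockout libraries lay below both wild-type ones in 0 members on the TPM scale in place of 1, Tet2, an alternative chosen after seeing the data. No ratio past 1.5-fold changed sign; among the others Tet3 in both knockout comparisons and Dnmt3a in control cells did so on the TPM scale. No paired analysis was possible because each group has 1 library and the labels give no replicate numbers, and for the same reason no library could be left out. Depth limits Tet1 most, then Dnmt3b.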

Other observations

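Genes whose silencing is known to rest on DNA methylation were low in all 4 libraries. Of 12 germline genes with promoters that are methylated in somatic cells, 0 were measured and 5 were listed at 0 in every library. The 12 summed to 2.45 and 2.11 FPKM in the knockout libraries with and without ruxolitinib, against 2.46 and 1.95 FPKM in the wild-type pair. Within that sum the members differed, and those named here were chosen after their values were seen. The meiotic gene Sycp1 was at 0.576 and 0.686 FPKM in the knockout, against 0 and 0.0137 FPKM in the wild-type pair. The germ cell helicase gene Ddx4 was at 0.230 and 0.174 FPKM in the knockout, against 1.01 and 0.829 FPKM in the wild-type pair.

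Of 16 imprinted genes 1 was measured, Zrsr1, at 2.53 and 2.19 FPKM in the knockout libraries with and without ruxolitinib, against 3.43 and 3.17 FPKM in the wild-type pair. Below 1 FPKM on average, the maternally expressed RNA H19 was at 0.352 and 0.40 FPKM in the knockout, against 0.0102 and 0.0109 FPKM in the wild-type pair. Grb10 was at 0.250 and 0.234 FPKM in the knockout, against 0.934 and 0.987 FPKM in the wild-type pair. Levels this low rest on few fragments in single libraries.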
